A study of Mus musculus with 9 samples.

Results

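The iron handling genes of the liver were measured in whole-liver RNA of male FVB mice. They are 9 genes, chosen by name, out of 24419 gene symbols in the count table: the ferritin chains Fth1 and Ftl1, the haem breakdown enzymes Hmox1 and Blvrb, the hepcidin genes Hamp and Hamp2, and the transport genes Trf, Tfr2 and Slc40a1. All 9 were found in the table. The samples came from 3 groups of 3 mice. MODEL1 mice carried plasmids for NFE2L2 with the G31A change and CTNNB1 with the T41A change and were 18 weeks old. MODEL2 mice carried NFE2L2 T80K with the same CTNNB1 T41A and were 19, 20 and 22 weeks old. Both received 20 µg of each of these plasmids in 2 ml saline through the tail vein, a hydrodynamic injection that loads hepatocytes, together with Sleeping Beauty transposase, an enzyme that integrates such plasmid inserts. CTRL mice were 13, 13 and 17 weeks old, and the labels do not state what they were given. The series' design describes liver tumours in both models and a control given wild-type NFE2L2 with CTNNB1 T41A, but does not tie that control to the sequenced CTRL mice. The sample labels say liver and not whether tumour or surrounding tissue was taken. Each model therefore differed from CTRL in age, and possibly in injection and tumour content, as well as in genotype, and these cannot be told apart.

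Liver stores iron inside ferritin, a shell built of heavy chains (Fth1), which oxidise iron, and light chains (Ftl1), which help it mineralise. Hepcidin, the hormone encoded by Hamp, is secreted by hepatocytes and makes ferroportin (Slc40a1), the iron exporter, leave the cell surface. Ferritin and ferroportin messages carry an iron responsive element in the 5′ untranslated region, a stem-loop bound by the iron regulatory proteins when iron is scarce. NFE2L2 encodes NRF2, an activator of antioxidant genes that is held down by KEAP1, and the ferritin, haem oxygenase and ferroportin genes are known among its targets. CTNNB1 encodes beta-catenin.

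The iron responsive element was found in 3 of the 9 genes, Slc40a1, Ftl1 and Fth1. These stem-loops are shown because the genes that hold them are the 3 tested genes called higher in MODEL1. Blvrb, which missed the filter on low counts and was not tested, has no match. Its counts were also higher in MODEL1 than in CTRL, at a ratio of 13.3 (4.26 to 67.1). They were read from GENCODE M21 transcripts, build GRCm38 (mm10), as 30 bases at chr1:45925465-45925494 on the minus strand for Slc40a1, chr7:45459779-45459808 on the minus strand for Ftl1, and chr19:9982731-9982760 on the plus strand for Fth1. Capitals mark the bulged C and the hexaloop CAGTGN.
Slc40a1 element: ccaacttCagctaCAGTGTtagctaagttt
Ftl1 element: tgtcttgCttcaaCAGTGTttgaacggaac
Fth1 element: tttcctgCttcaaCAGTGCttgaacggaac
The search asked for the C, a stem of 5 pairs (G with T allowed) and the loop on the sense strand of spliced 5′ untranslated regions. It matched 23 of 20580 genes with such a region, or 0.112%. Of these 23, 22 are in the count table and 7 were tested. Against CTRL, Fth1, Ftl1 and Slc40a1 rose in MODEL1 and Fth1 and Slc40a1 in MODEL2. Among the other tested holders, Alas2, Egfl7 and Nfib did not pass the test in either model, with log2 fold changes of 0.22 ± 0.34, -1.08 ± 0.44 and -1.17 ± 0.65 (SE) in MODEL1. Alas2, the erythroid haem synthesis enzyme, is a known carrier of a working element. A match is a description of the letters and not evidence of binding.

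The promoters of the hepcidin genes are shown because Hamp was the member that fell in MODEL1 while Hamp2 was close to undetected. They are the 250 bases before the RefSeq start, build GRCm38.p6, at chr7:30944030-30944279 for Hamp and chr7:30924182-30924431 for Hamp2, both on the minus strand. Capitals mark GGCGCC, the core of the BMP response element, and TTCNNNGAA, the STAT site.
Hamp promoter: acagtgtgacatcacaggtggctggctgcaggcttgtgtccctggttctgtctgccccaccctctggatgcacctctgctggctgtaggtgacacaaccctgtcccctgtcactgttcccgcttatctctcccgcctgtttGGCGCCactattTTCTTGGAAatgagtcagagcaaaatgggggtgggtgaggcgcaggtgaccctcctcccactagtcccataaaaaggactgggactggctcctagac
Hamp2 promoter: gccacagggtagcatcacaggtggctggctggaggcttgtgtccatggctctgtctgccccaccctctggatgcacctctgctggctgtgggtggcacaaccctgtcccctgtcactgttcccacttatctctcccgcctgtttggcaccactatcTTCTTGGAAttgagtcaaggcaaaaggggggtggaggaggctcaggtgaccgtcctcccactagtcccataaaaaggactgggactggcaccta
An alignment of the pair had 227 identical bases in 253 columns, or 89.7%. The Hamp window holds GGCGCC with its first base 109 bases before the start and TTCTTGGAA with its first base 97 bases before it. The Hamp2 window holds TTCTTGGAA, 94 bases before its start, and no GGCGCC. Both motifs were searched on both strands and do not overlap each other here. GGCGCC occurs in 9.59% and TTCNNNGAA in 7.02% of 32851 promoters of the same length. RefSeq windows were used for 6 of the 9 genes, namely Hamp, Hamp2, Fth1, Ftl1, Blvrb and Tfr2. The promoter set used held none for Hmox1, Trf and Slc40a1. The antioxidant response element core TGACNNNGC, present in 10.2% of all promoter windows, matched in none of the windows of these 6 genes. Bases outside these windows were not searched, so an element may lie further away.

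Sequencing was shallow, with totals of 219504 to 325177 counts per sample, so 3 counts, the most that a count of 0 allows, stood for 9.23 to 13.7 CPM (counts scaled to a common sample total). The ribosomal precursor Rn45s took 2.20% to 13.4% of the counts, and 3 samples were above 8% (MODEL1 replicates 1 and 3 and CTRL replicate 1). All 15 hepatocyte markers were detected, with a summed level of 1933 to 3563 CPM in MODEL1, 2326 to 2807 CPM in MODEL2 and 3029 to 3969 CPM in CTRL. How the counting treated strand is not given in the sources used here. Gm30505, whose exon lies opposite that of the hepatocyte gene Ahsg, held 10462 to 12030 counts per sample in MODEL1, 14882 to 19995 in MODEL2 and 24204 to 29350 in CTRL, while Ahsg held 28 to 47, 20 to 41 and 45 to 66. The 15 hepatocyte markers together held 750 to 1039 counts per CTRL sample, fewer than Gm30505 alone. Whether a member's counts come from its own strand can therefore not be read from the table, and its neighbours are named beside it. Rises and falls given below are those of the counts under each gene's name. Fewer cells of a type and less RNA per cell cannot be told apart in whole liver.

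Iron storage and iron export genes were higher, and hepcidin was lower, in MODEL1 liver than in CTRL liver. Of the 9 genes, 5 passed the filter on low counts and were tested with edgeR, and 4 of these differed in MODEL1, Fth1, Ftl1 and Slc40a1 being higher and Hamp lower. Of all 2639 genes tested, 22.8% differed in MODEL1 (11.9% higher and 11.0% lower). In MODEL2 against CTRL 2 were called, Fth1 and Slc40a1, both higher, where 13.3% of all tested genes were called, 8.30% higher and 4.96% lower. In MODEL2 against MODEL1 3 were called, Fth1, Ftl1 and Slc40a1, all lower, where 7.28% were called, 3.87% higher and 3.41% lower. Samples did not overlap in MODEL1 against CTRL for 4 genes that were higher (Fth1, Ftl1, Slc40a1 and the untested Blvrb) and for Hamp, which was lower, beside 21.8% and 13.4% of all tested genes in those directions. In MODEL2 against CTRL this held for 2 higher genes and for Hamp, beside 21.1% and 9.70%, and in MODEL2 against MODEL1 for 3 lower and 0 higher genes, beside 12.9% and 13.4%. Fth1 and Slc40a1 passed the filter only through the samples of the 2 models, and no MODEL1 sample of Hamp reached it, so such genes had to differ and these counts are a description. Over the 5 tested genes the log2 fold change had a median of 1.51 in MODEL1 and 0.29 in MODEL2, both against CTRL, and of -1.19 between MODEL2 and MODEL1, beside 0.00, 0.00 and 0.01 for all tested genes. The comparisons share samples, so their values are not independent of each other.

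**Figure D1:**
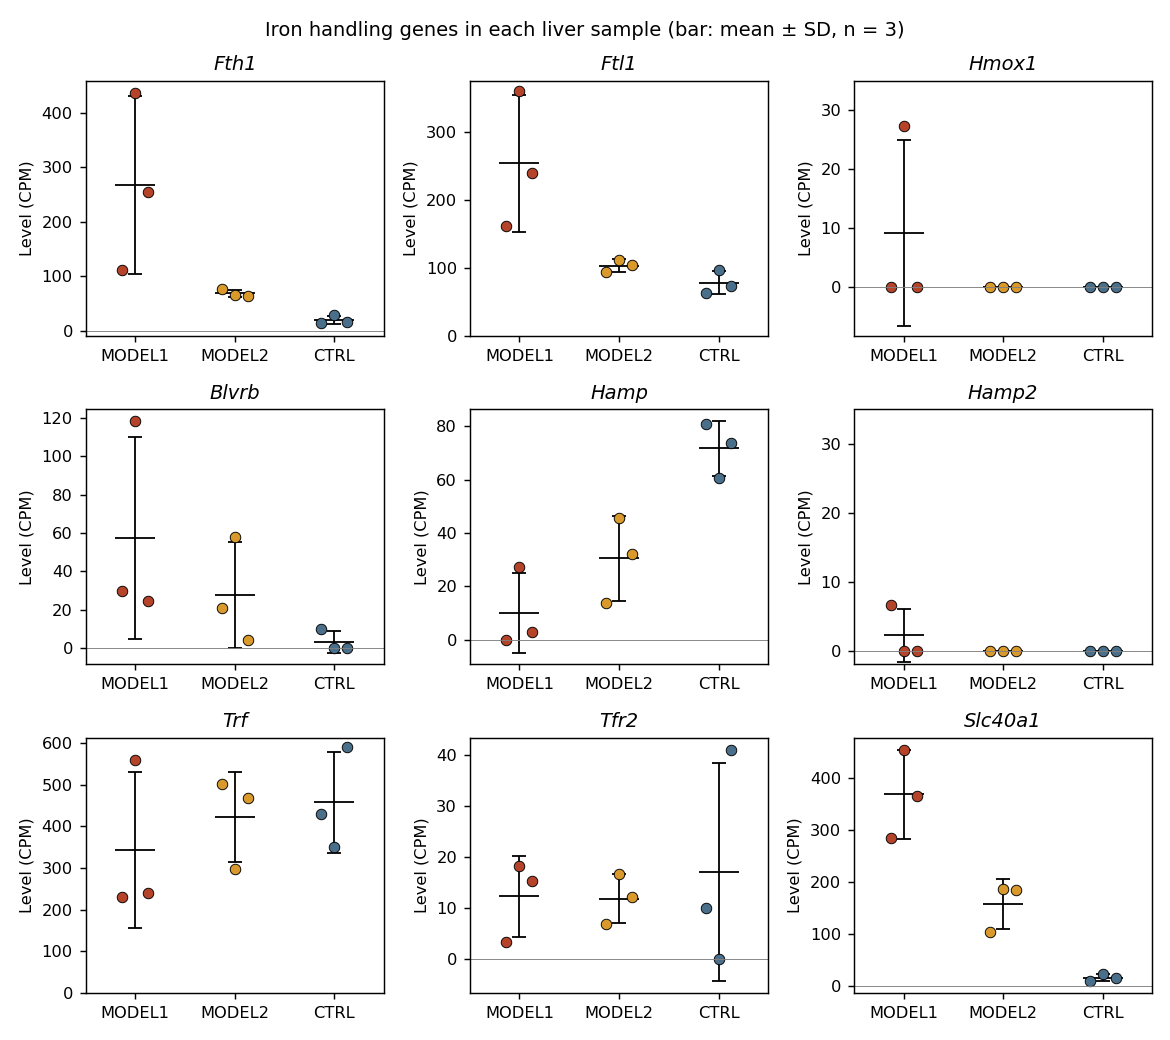
Level of each of the 9 iron handling genes in CPM (vertical axis, own scale per panel) in the 3 samples of MODEL1, MODEL2 and CTRL; points are samples and bars give the mean ± SD. Fth1 and Slc40a1 lie in 3 separate bands, MODEL1 above MODEL2 above CTRL, while Hamp is highest in CTRL and Trf overlaps between all groups.

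Ferritin heavy chain Fth1 (chromosome 19, 9980598 to 9985098, plus strand, mm10) rose in both models. It held 34, 96 and 83 counts in MODEL1 replicates 1 to 3, 22, 16 and 16 in MODEL2, and 4, 7 and 4 in CTRL. The groups did not overlap: every MODEL1 sample was above every MODEL2 sample, and every MODEL2 sample above every CTRL sample. The level was 268 ± 163 CPM in MODEL1, 69.0 ± 6.35 CPM in MODEL2 and 19.4 ± 7.84 CPM in CTRL (SD, n = 3 each). MODEL1 spread widest, with replicate 1 lowest. No CTRL sample reached the filter, so the calls of Fth1 against CTRL are a description. The log2 fold change was 3.57 ± 0.47 (SE) in MODEL1 (edgeR adjusted p = 5.4e-06) and 1.72 ± 0.51 in MODEL2 (edgeR adjusted p = 0.0273) against CTRL. It was -1.85 ± 0.39 in MODEL2 against MODEL1 (edgeR adjusted p = 0.00567). The MODEL2 call was lost without CTRL replicate 1 (edgeR adjusted p = 0.112), CTRL replicate 3 (0.0903), MODEL2 replicate 1 (0.0847) or MODEL2 replicate 2 (0.0591), without the 3 samples rich in Rn45s (0.0833) and with age in the fit (0.390), and the call against MODEL1 was lost without MODEL1 replicate 2 (0.0634) and with age (0.138). Best1 lies 75 bases away on the opposite strand, and mouse ferritin pseudogenes may share reads with both chains.

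Ferritin light chain Ftl1 (chromosome 7, 45457944 to 45459884, minus strand) rose in MODEL1. It held 49, 79 and 78 counts in MODEL1, 27, 27 and 26 in MODEL2 and 19, 24 and 18 in CTRL. The MODEL1 samples all lay above those of the other groups, while MODEL2 and CTRL overlapped in CPM. Levels were 254 ± 100 CPM in MODEL1, 103 ± 9.25 CPM in MODEL2 and 78.2 ± 17.0 CPM in CTRL (SD, n = 3 each). The log2 fold change was 1.51 ± 0.33 in MODEL1 (edgeR adjusted p = 0.00137) and 0.29 ± 0.34 in MODEL2 (edgeR adjusted p = 0.653) against CTRL. MODEL2 fell by 1.23 ± 0.32 log2 units against MODEL1 (edgeR adjusted p = 0.0218), a call that was lost when any 1 of MODEL1 replicates 2 and 3 and the 3 MODEL2 replicates was left out (0.0546 to 0.123), with no filter (0.0918), with age (0.157) and without the samples rich in Rn45s (0.0590). An exon of Gm10252 lies opposite 355 of its exon bases, and Gm22133 shares its own strand.

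The heavy chain took a larger part of the ferritin counts in every sample of both models than in any CTRL sample. It made up 41.0%, 54.9% and 51.6% of the summed Fth1 and Ftl1 counts in MODEL1, 44.9%, 37.2% and 38.1% in MODEL2 and 17.4%, 22.6% and 18.2% in CTRL. MODEL1 and MODEL2 overlapped. The means were 49.1% ± 7.26, 40.1% ± 4.21 and 19.4% ± 2.80 (SD, n = 3 each). The difference from CTRL was 29.7 percentage points in MODEL1 and 20.7 in MODEL2, each with a two-sided exact permutation p of 0.1, the smallest that 3 against 3 samples allow (0.15 adjusted over the 3 comparisons). MODEL2 differed from MODEL1 by -9.06 percentage points (exact permutation p = 0.2, adjusted 0.2). This share does not depend on how the samples are scaled.

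**Figure D2:**
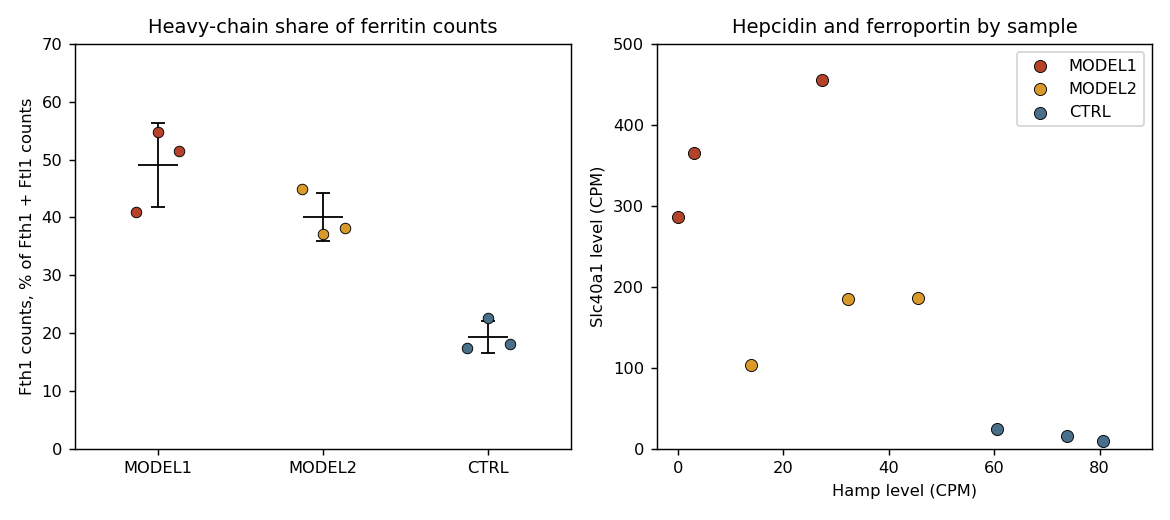
Left, Fth1 counts as a percentage of Fth1 plus Ftl1 counts in each sample of MODEL1, MODEL2 and CTRL, with mean ± SD; right, the level of Slc40a1 against that of Hamp, both in CPM, 1 point per sample. The CTRL samples lie between 17.4% and 22.6% on the left, and on the right at high Hamp and low Slc40a1.

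Neither haem breakdown gene passed the filter. Haem oxygenase 1, Hmox1 (chromosome 8, 75093621 to 75100589, plus strand), opens the haem ring and frees its iron. It held 6 counts, all in MODEL1 replicate 2, and 0 in each other sample. Against a floor of 3 counts in the group at 0, the ratio was 1.86 for MODEL1 over CTRL and 1.83 for MODEL1 over MODEL2. Both rest on that 1 sample and are no bound on a difference between the groups. With no filter on low counts the log2 fold change in MODEL1 against CTRL was 4.03 ± 2.22 (edgeR adjusted p = 0.552).

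Biliverdin reductase B, Blvrb (chromosome 7, 27447978 to 27466144, plus strand), reduces flavins and biliverdin. It held 9, 26 and 8 counts in MODEL1, 6, 14 and 1 in MODEL2 and 3, 0 and 0 in CTRL. All MODEL1 samples lay above all CTRL samples, whereas MODEL2 overlapped with both. Its levels were 57.5 ± 52.8 CPM in MODEL1, 27.6 ± 27.6 CPM in MODEL2 and 3.36 ± 5.82 CPM in CTRL (SD, n = 3 each). It missed the filter. Scaled by totals, its counts over CTRL gave a ratio of 13.3 (4.26 to 67.1) for MODEL1 and of 7.10 (2.12 to 37.2) for MODEL2. MODEL2 over MODEL1 gave 0.533 (0.300 to 0.918), with exact 95% binomial intervals that cover counting error only. All 3 CTRL counts were in CTRL replicate 1, so without it no ratio to CTRL is given. Leaving out any other sample gave 7.10 (without MODEL1 replicate 2) to 17.6 for MODEL1 and 3.43 (without MODEL2 replicate 2) to 9.93 for MODEL2. MODEL2 over MODEL1 was 0.999 without MODEL1 replicate 2, 0.257 without MODEL2 replicate 2 and 0.228 without the samples rich in Rn45s. With no filter on low counts the log2 fold change against CTRL was 3.49 ± 0.84 in MODEL1 (edgeR adjusted p = 0.00152). In MODEL2 it was 2.68 ± 0.90 (edgeR adjusted p = 0.11). Without CTRL replicate 3 Blvrb passed the filter, with a MODEL1 value of 2.97 ± 1.10 (edgeR adjusted p = 0.0608). The other fits without 1 sample that tested it in MODEL1 against CTRL gave edgeR adjusted p of 0.00782 to 0.0487. Sptbn4 lies 291 bases away on the opposite strand.

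Hepcidin, Hamp (chromosome 7, 30942368 to 30944032, minus strand), was lower in both models, and the fall was called in MODEL1 but not in MODEL2. It held 0, 6 and 1 counts in MODEL1, 4, 11 and 8 in MODEL2 and 24, 15 and 18 in CTRL. Every sample of both models lay below every CTRL sample, and the models overlapped with each other. No MODEL1 sample reached the filter, so the MODEL1 call of Hamp against CTRL is a description. Levels were 10.1 ± 15.0 CPM in MODEL1, 30.6 ± 15.9 CPM in MODEL2 and 71.7 ± 10.2 CPM in CTRL (SD, n = 3 each). The log2 fold change was -3.15 ± 0.74 in MODEL1 (edgeR adjusted p = 0.00310) and -1.37 ± 0.63 in MODEL2 (edgeR adjusted p = 0.171) against CTRL. It was 1.78 ± 0.80 in MODEL2 against MODEL1 (edgeR adjusted p = 0.208), which became 3.84 ± 1.03 (0.0489) without MODEL1 replicate 2, the sample that held 6 of the group's counts. Without that replicate the MODEL1 value against CTRL was -5.22 ± 0.94 (edgeR adjusted p = 0.000577). The MODEL1 call was lost with age in the fit (-3.19 ± 1.04, edgeR adjusted p = 0.0526) and without the samples rich in Rn45s, which leaves MODEL1 replicate 2 alone in its group (-1.58 ± 0.88, 0.325).

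Of the hepatocyte genes tested beside Hamp, 5 of 11 fell and 1 rose in MODEL1 against CTRL, beside 11.0% lower and 11.9% higher among all tested genes, with a median log2 fold change of -0.98. In MODEL2 3 fell, beside 4.96% of all tested genes. Albumin, Alb, changed by -0.99 ± 0.24 log2 units in MODEL1 (edgeR adjusted p = 0.00406) and by -0.85 ± 0.24 in MODEL2 (edgeR adjusted p = 0.0199). The part of these genes in the fall of Hamp was not tested.

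Hamp2 (chromosome 7, 30922372 to 30924681, minus strand), the mouse copy next to Hamp, held 2 counts in MODEL1 replicate 1 and 0 in each other sample, so no fold is given. Reads of the near-identical pair may be shared, and an exon of Gm44662 lies opposite Hamp2.

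Ferroportin, Slc40a1 (chromosome 1, 45908068 to 45926523, minus strand), rose in both models against CTRL. It held 87, 100 and 119 counts in MODEL1, 30, 45 and 46 in MODEL2 and 3, 6 and 4 in CTRL. The 3 groups did not overlap, MODEL1 lying highest and CTRL lowest. No CTRL sample reached the filter, so the calls of Slc40a1 against CTRL are a description. Levels were 369 ± 84.8 CPM in MODEL1, 159 ± 47.3 CPM in MODEL2 and 16.9 ± 7.09 CPM in CTRL (SD, n = 3 each). The log2 fold change was 4.28 ± 0.39 in MODEL1 (edgeR adjusted p = 2.9e-08) and 3.09 ± 0.41 in MODEL2 (edgeR adjusted p = 1.2e-05) against CTRL. It was -1.19 ± 0.29 in MODEL2 against MODEL1 (edgeR adjusted p = 0.0159). With age in the fit the MODEL2 value against CTRL was 2.60 ± 0.89 (edgeR adjusted p = 0.154), while every fit that left out 1 sample kept that call. The call between the models was lost without MODEL1 replicate 2 (0.0727) or 3 (0.0595), without MODEL2 replicate 1 (0.134) or 3 (0.0512), with no filter (0.0586), with age (0.0936) and without the samples rich in Rn45s (0.120). No exon of another gene lies opposite it.

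Transferrin, Trf (chromosome 9, 103204001 to 103230444, minus strand), the plasma iron carrier made by hepatocytes, did not pass the test in any comparison. It held 70, 123 and 78 counts in MODEL1, 145, 72 and 116 in MODEL2 and 128, 87 and 144 in CTRL, and all groups overlapped. Levels were 343 ± 188 CPM in MODEL1, 423 ± 109 CPM in MODEL2 and 457 ± 122 CPM in CTRL (SD, n = 3 each). The log2 fold change was -0.59 ± 0.29 in MODEL1 (edgeR adjusted p = 0.152) and -0.20 ± 0.28 in MODEL2 (edgeR adjusted p = 0.706) against CTRL, and 0.39 ± 0.29 in MODEL2 against MODEL1 (edgeR adjusted p = 0.506). Without MODEL1 replicate 2, its highest MODEL1 sample, the MODEL1 value was -0.998 ± 0.29 (edgeR adjusted p = 0.0199). Gm20425 shares its strand and exon bases.

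Transferrin receptor 2, Tfr2 (chromosome 5, 137569840 to 137587481, plus strand), senses iron-loaded transferrin on hepatocytes. It held 1, 4 and 5 counts in MODEL1, 2, 4 and 3 in MODEL2 and 3, 0 and 10 in CTRL, and the groups overlapped. It missed the filter. Its count ratio to CTRL was 0.715 (0.281 to 1.77) for MODEL1 and 0.702 (0.265 to 1.78) for MODEL2, and MODEL2 to MODEL1 gave 0.982 (0.353 to 2.69), all with exact 95% intervals. CTRL replicate 3 held 10 of the 13 CTRL counts, and without it the ratios to CTRL were 2.14 in MODEL1 and 2.102 in MODEL2. A difference was not detectable at this depth.

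**Figure D3:**
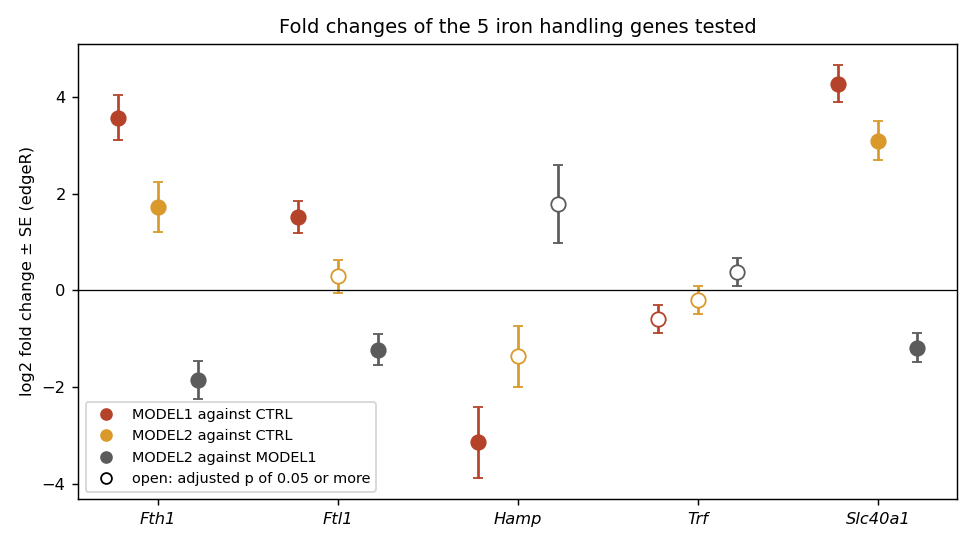
Log2 fold change with its SE (vertical axis) of the 5 tested iron handling genes in MODEL1 against CTRL, MODEL2 against CTRL and MODEL2 against MODEL1; filled points had an edgeR adjusted p below 0.05. Slc40a1 reaches 4.28 in MODEL1, Hamp -3.15, and the points of Trf are unfilled in all 3 comparisons.

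Levels per length order the genes differently in each group. Whether the counts come from a gene's own strand is not known, so this order need not be that of the transcripts. On CPM per kilobase of the main coding transcript, Fth1 at 289 ± 176 and Ftl1 at 262 ± 103 had the highest means in MODEL1, followed by Trf at 147 ± 80.3, Slc40a1 at 110 ± 25.2, Blvrb at 60.5 ± 55.5 and Hamp at 24.7 ± 36.5 (SD, n = 3). In MODEL2 Trf led at 181 ± 46.6, ahead of Ftl1 at 107 ± 9.55, Hamp at 74.5 ± 38.9, Fth1 at 74.3 ± 6.84, Slc40a1 at 47.1 ± 14.0 and Blvrb at 29.0 ± 29.1. In CTRL Trf at 196 ± 52.1 and Hamp at 175 ± 24.9 led, ahead of Ftl1 at 80.8 ± 17.5, Fth1 at 20.9 ± 8.44, Tfr2 at 6.00 ± 7.53, Slc40a1 at 5.02 ± 2.103 and Blvrb at 3.53 ± 6.12. In MODEL1 no gene separated from its neighbour in this order beyond their SDs. In MODEL2 Trf separated from Ftl1, Ftl1 from Fth1 and Fth1 from Slc40a1. Hamp, between Ftl1 and Fth1 in order, did not separate from either, and Slc40a1 did not separate from Blvrb. In CTRL Trf and Hamp did not separate, Hamp separated from Ftl1 and Ftl1 from Fth1, and the genes from Fth1 downwards did not separate from their neighbours. Tfr2, Hamp2 and Hmox1 were at 4.33 ± 2.79, 5.17 ± 8.95 and 5.81 ± 10.1 CPM per kilobase in MODEL1. In MODEL2 Tfr2 was at 4.18 ± 1.70, and Hmox1 and Hamp2 had no counts in MODEL2 or CTRL.

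Macrophages also make ferroportin when they recycle red cells, and the summed level of their markers was highest in MODEL1. The 13 macrophage and Kupffer cell markers summed to 135, 173 and 101 CPM in MODEL1, 41.6, 45.6 and 64.4 CPM in MODEL2 and 37.0, 80.8 and 73.8 CPM in CTRL. MODEL1 lay above both other groups, and MODEL2 overlapped with CTRL, whereas Slc40a1 and Fth1 separated MODEL2 from CTRL. In MODEL1 10 of the 13 were detected on 112 counts in all, in MODEL2 6 on 39 counts and in CTRL 8 on 49 counts. Adgre1 and Spic were at 0 in every sample, and none of the 13 reached the filter. Clec4f, a Kupffer cell marker, held 1, 2 and 6 counts in MODEL1, 0 in each MODEL2 sample and 2, 1 and 0 in CTRL. The lysosomal protein gene Cd68 held 14, 13 and 10 counts in MODEL1, 1, 7 and 4 in MODEL2 and 2, 5 and 4 in CTRL. Csf1r, the macrophage growth factor receptor, held 7, 6 and 2 counts in MODEL1, 7, 0 and 6 in MODEL2 and 3, 5 and 6 in CTRL. Its count ratio of MODEL1 to CTRL was 0.996 (0.448 to 2.23), against 3.13 (1.56 to 6.80) for Cd68, with exact 95% intervals. Lyz2 held 4 counts in MODEL1, 0 in MODEL2 and 4 in CTRL, and Timd4 0, 2 and 2, so the markers did not move together. Much of the MODEL1 sum came from Cd68 with 37 counts, C1qc with 18 and C1qa with 17. The part of macrophages in the rise of ferroportin and ferritin was not tested.

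Cd163, the haptoglobin and haemoglobin scavenger receptor of macrophages, moved in the same directions as Slc40a1. It held 51, 44 and 42 counts in MODEL1, 14, 17 and 12 in MODEL2 and 5, 6 and 4 in CTRL. The 3 groups did not overlap. Cd163 reached the filter through the samples of the 2 models and in no CTRL sample, so its calls against CTRL are a description. Cd163 was higher by 2.94 ± 0.43 log2 units in MODEL1 (edgeR adjusted p = 2.1e-05) and by 1.40 ± 0.47 in MODEL2 (edgeR adjusted p = 0.0498) against CTRL. It fell by 1.53 ± 0.37 in MODEL2 against MODEL1 (edgeR adjusted p = 0.0146). The MODEL2 call held in 3 of 16 alternative fits (adjusted p 0.0374 to 0.447), and the call between the models in 9 of 16 (0.00436 to 0.206).

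**Figure D4:**
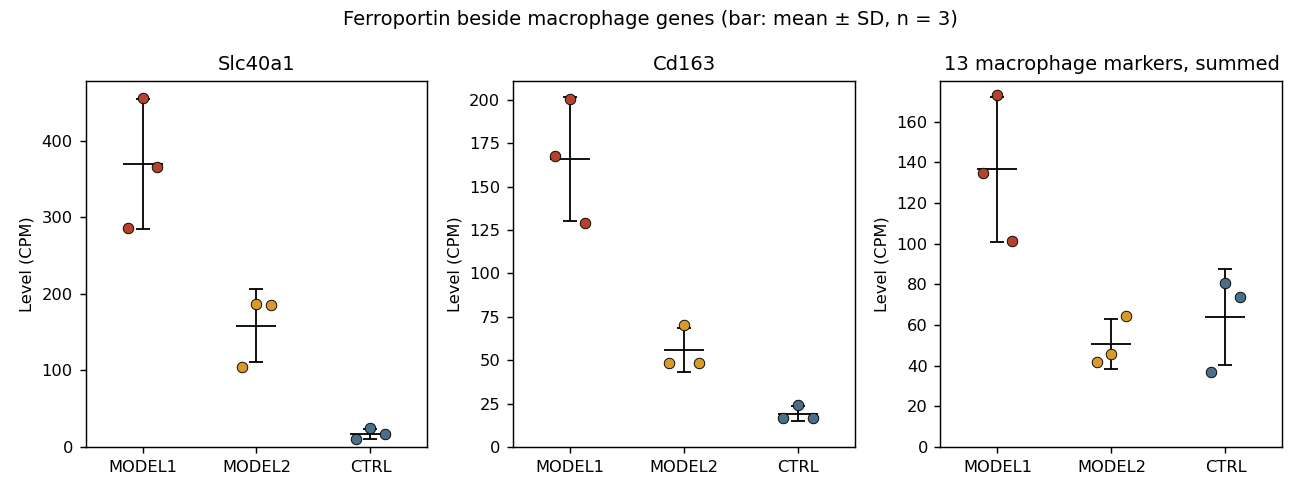
Level in CPM of Slc40a1, of Cd163 and of the sum of 13 macrophage markers in each sample of MODEL1, MODEL2 and CTRL, with mean ± SD. For Slc40a1 and Cd163 the 3 groups are separate, while for the summed markers MODEL2 (41.6 to 64.4 CPM) overlaps with CTRL (37.0 to 80.8 CPM).

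The red cell markers were too sparse for a pattern to be read from them. Of 11 erythroid markers, 9 are in the table, and 6 of these, the 4 globin genes among them, were at 0 in every sample. The list summed to 388 to 409 CPM in MODEL1, 152 to 303 CPM in MODEL2 and 125 to 447 CPM in CTRL, and nearly all of it was Alas2. Alas2 held 115, 84 and 122 counts in MODEL1, 38, 69 and 66 in MODEL2 and 124, 28 and 87 in CTRL, and exons of Apex2 and Mir3620 lie opposite it. The 13 endothelial and stellate markers summed to 250 to 446 CPM in MODEL1, 222 to 522 CPM in MODEL2 and 407 to 489 CPM in CTRL.

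The other iron genes were called about as often as all tested genes. Of 80 listed genes of iron transport, sensing, hepcidin control, haem and iron-sulphur assembly, 78 are in the table, 10 of them had 0 counts in all samples and 18 were tested. In MODEL1 against CTRL 2 rose and 2 fell, with a median log2 fold change of 0.22 over the 18. In MODEL2 1 rose and 1 fell (median -0.08), and in MODEL2 against MODEL1 1 fell (median -0.33). All tested genes gave 22.8%, 13.3% and 7.28% called, so these counts are near the background.

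Pcbp1, a chaperone that hands iron to ferritin, fell in both models. It held 13, 5 and 17 counts in MODEL1, 12, 13 and 17 in MODEL2 and 26, 33 and 39 in CTRL, every model sample below every CTRL sample. Its log2 fold change was -1.75 ± 0.42 in MODEL1 (edgeR adjusted p = 0.00331) and -1.31 ± 0.41 in MODEL2 (edgeR adjusted p = 0.0335). The MODEL1 call held in all 16 alternative fits and the MODEL2 call in 6 of 16. An exon of 1600020E01Rik, which held 1 count in all, lies opposite it. Pcbp1 is on a list of 9 iron storage partners and iron sensing genes, separate from the members. Ncoa4, the receptor that delivers ferritin for breakdown, was the other tested gene of that list. It was called by neither edgeR nor DESeq2 in any comparison.

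No gene of the hepcidin control list passed the test. Of its 23 genes, 5 were tested: Hfe2, the BMP co-receptor hemojuvelin, Acvr2a, an activin receptor, Fam132b, the erythroid hormone erythroferrone, Il6ra, the interleukin 6 receptor, and Furin, the protease that trims prohepcidin. EdgeR and DESeq2 each called 0 in MODEL1 or MODEL2 against CTRL and between the models, with median log2 fold changes of -0.18, -0.19 and -0.51 in edgeR. Before adjustment, edgeR's p was under 0.05 for Acvr2a in MODEL1 and Il6ra in MODEL2, and for 0 genes between the models. The uptake and export list had 1 of 15 tested, the plasma ferroxidase Cp, and the haem synthesis list 2 of 8, Alad and Cpox. EdgeR and DESeq2 called 0 of these in any comparison, and 0 had an unadjusted p under 0.05.

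Among 5 tested genes of haem breakdown and carriage, Cd163 was higher as above and Hmox2, the constitutive haem oxygenase, fell in MODEL1. Hmox2 held 62, 62 and 87 counts in MODEL1, 111, 100 and 91 in MODEL2 and 133, 95 and 85 in CTRL. Its log2 fold change was -0.81 ± 0.24 in MODEL1 (edgeR adjusted p = 0.0147) and -0.14 ± 0.23 in MODEL2 (edgeR adjusted p = 0.755). The MODEL1 call held in 10 of 16 alternative fits (adjusted p 0.00600 to 0.548); without CTRL replicate 1 it was 0.0802 and without MODEL1 replicate 1 0.0539. An exon of Cdip1, which held 291 to 507 counts per sample, lies opposite Hmox2.

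Of the iron-sulphur assembly genes 3 of 12 were tested, and Glrx5, a mitochondrial glutaredoxin that passes iron-sulphur clusters on, was called higher in MODEL1. It held 19, 20 and 21 counts in MODEL1, 9, 2 and 5 in MODEL2 and 2, 0 and 0 in CTRL. The MODEL1 counts were nearly equal and stood above all others. Glrx5 reached the filter in the MODEL1 samples alone, so it was tested only through the group where it is high, and its values are a description. The ratio to CTRL was 27.9 (7.39 to 236) in MODEL1, on 2 CTRL counts, and the log2 fold change 4.47 ± 0.85 (edgeR adjusted p = 0.000408). In MODEL2 it was 2.70 ± 0.98 (edgeR adjusted p = 0.0741). Both CTRL counts were in CTRL replicate 1. Without it the remaining CTRL samples are at 0 and the fitted values, which then depend on the prior count and are no bound, became 7.21 ± 1.38 in MODEL1 (edgeR adjusted p = 0.000467) and 5.46 ± 1.62 in MODEL2 (edgeR adjusted p = 0.0379). Snhg10 lies 408 bases away on the opposite strand.

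**Figure D5:**
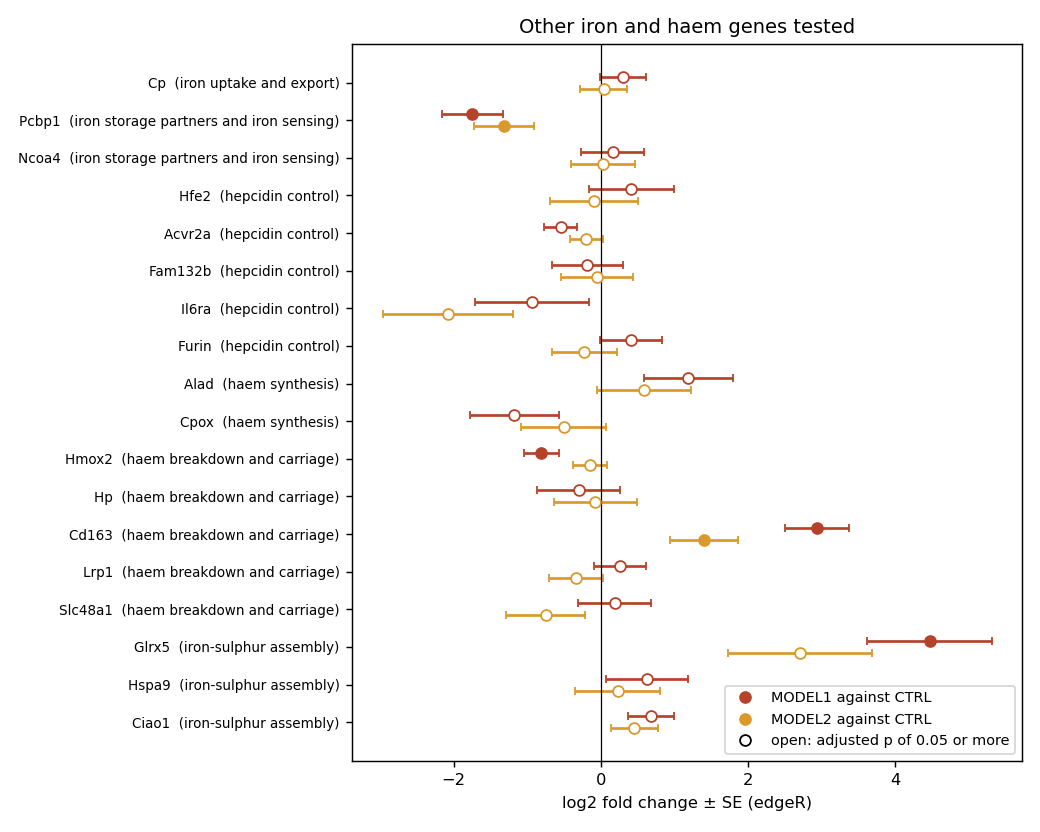
Log2 fold change with its SE (horizontal axis) of the 18 tested iron, haem and iron-sulphur genes outside the 9, with their list in brackets, in MODEL1 and MODEL2 against CTRL; filled points had an edgeR adjusted p below 0.05. Cd163 and Pcbp1 are filled in both models, Glrx5 and Hmox2 in MODEL1.

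The genes with the profile most like each tested gene were found by the root mean square difference of centred log2 CPM over the 9 samples, as a description. Closest to Fth1 were 4930533B01Rik, at a difference of 0.45, and Grina, at 0.46. Ftl1 was closest to Chad (0.25) and Gm10584 (0.27), and Trf to Dbp (0.17) and Ambp (0.19). For Hamp they were Cidec (0.51) and Cps1 (0.53), the urea cycle enzyme, which held 0, 8 and 6 counts in MODEL1, 19, 18 and 14 in MODEL2 and 34, 18 and 39 in CTRL. Slc40a1 was closest to A930009A15Rik (0.30), with 55, 66 and 74 counts in MODEL1, 17, 27 and 34 in MODEL2 and 1, 1 and 2 in CTRL, and next to Eml6 (0.40), which has an exon of Rtn4 opposite it. The points share their libraries and depth.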

How the data were processed

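Whole-liver RNA of 9 mice was extracted with Trizol and sequenced from Illumina libraries, per the labels' protocols. The deposited table held raw counts of reads per gene symbol with no normalization. Trimmomatic 0.38, HISAT2 2.1.0, HTSeq 0.11.2 and genome build mm10 are named in the submitters' processing notes; their roles, the annotation and the strand setting are not given in the sources used here. Groups came from the labels. All genes were tested in edgeR 4.0.16 (quasi-likelihood F test, TMM scaling, all 9 samples in 1 fit, low counts removed by filterByExpr with a minimum count of 10, which required 40.3 CPM in at least 3 samples), leaving 2639 genes; genes were called at a Benjamini-Hochberg adjusted p below 0.05 over these. Genes below the filter were compared by pooled count ratios with exact 95% conditional binomial intervals. PCR copies are not independent molecules, so intervals and floors cover counting error only. Nothing states that samples of a group came from separate litters or days, so p-values measure only the spread between these samples.

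The 9 genes and all lists were chosen with earlier results of these data known. All 9 were to be named, as were other listed iron genes called in any comparison (at most 4 per list and comparison) and the 2 nearest profiles of each tested gene. Alternatives were RLE size factors, library totals, Rn45s left out, no filter, a filter of 1 CPM in 3 samples, DESeq2 1.42.0, 2-group fits, age, a replicate block and leaving out each sample. The fit without the 3 samples above 8% Rn45s was chosen after seeing the data. The script was tested on simulated counts. Gene positions, lengths and 5′ untranslated regions came from GENCODE M21, with lengths from the transcript of the longest coding sequence, and promoters from RefSeq. No pair of samples of the same group matched within sampling noise (chi-square per degree of freedom 3.11 to 16.8). Pairs from different groups were not compared. Flvcr1, Flvcr2, Epb42 and Ahsp were not analysed here, and 1 tested gene with an iron responsive element is not reported here.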

Additional observations from a re-analysis of the deposited data

How the results depend on the processing

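Fth1, Ftl1 and Slc40a1 stayed higher in MODEL1 than in CTRL, and past the threshold, in all 16 alternative fits (edgeR or DESeq2 adjusted p 2.7e-13 to 0.00145, 0.000433 to 0.0401 and 4.5e-22 to 0.000136), while Hamp stayed lower in all 16 and past it in 14. Of 239 alternative values of the 5 tested genes, 210 kept direction and call, 26 lost the call, 2 gained one and 1 reversed: without the samples rich in Rn45s, Trf in MODEL2 against MODEL1 was at -0.14. Of the other iron genes, Hmox2 in MODEL2 against CTRL reversed to 0.51 with age, 0.0054 without CTRL replicate 1 (-0.29 to 0.0054 with 1 sample left out) and 0.026 without the samples rich in Rn45s. The heavy-chain share kept its direction, at 26.9 to 34.5 percentage points for MODEL1 and 18.3 to 22.3 for MODEL2 over CTRL, and -14.8 to -6.19 between the models. Fth1 and Slc40a1 passed the main filter only through model samples, and no MODEL1 sample of Hamp reached it. The calls of Fth1, Slc40a1 and Hamp against CTRL in these fits are therefore a description.

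Over all genes, edgeR called 602 in MODEL1, 350 in MODEL2 and 192 in MODEL2 against MODEL1. With age as a covariate the counts were 299, 71 and 101, and without the samples rich in Rn45s, which leaves 1 MODEL1 and 2 CTRL samples and assumes that the lone one varies like the others, 299, 210 and 62. Leaving out 1 sample gave 497 to 602, 221 (without CTRL replicate 1) to 379, and 85 to 142. Of the 9 genes, MODEL2 against CTRL had 0 called by edgeR with age (2 at an unadjusted p under 0.05; DESeq2 without age called 2), 1 without the samples rich in Rn45s and 1 to 2 with 1 sample left out. MODEL2 against MODEL1 had 1 called with no filter, 0 by edgeR with age (3 at an unadjusted p under 0.05; DESeq2 without age called 3), 1 without the samples rich in Rn45s and 1 to 3 with 1 sample left out. In MODEL1 leaving out 1 sample gave 4 to 5. Scaling by library totals alone moved the median of all genes by 0.16 in MODEL1 and 0.10 in MODEL2, and the MODEL1 calls became 365 higher and 201 lower, against 313 and 289. Same-numbered samples did not deviate together (r = -0.121 to 0.0103), so the numbers share only a label; the replicate block left 125 calls in MODEL2 against MODEL1. The causes were not tested. Counts under 10 in most or all samples of a group limit Hmox1, Hamp2, Tfr2 and Blvrb. They also limit Hamp in MODEL1 and MODEL2, and Fth1 and Slc40a1 in CTRL.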
